A study of Mus musculus with 4 samples.

Results

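Promoter methylation was examined for 10 mouse genes that encode pro-apoptotic proteins of the BCL2 family, Pmaip1 (which encodes NOXA) and its relatives. Pmaip1 was chosen by its lower promoter methylation in anti-PD1-resistant tumors of this same data set, so its difference between the tumor lines is a description and carries no test. The other 9 genes, Bbc3, Bcl2l11, Bik, Bid, Bad, Bmf, Hrk, Bax and Bak1, were selected on family membership. All 10 genes had measurable promoter sites, among 20135 genes with at least 1 such site and 55413 genes in the annotation.

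The BCL2 family controls the mitochondrial route to apoptosis. Its BH3-only proteins, such as NOXA, PUMA and BIM, are induced or activated by stress and either neutralise the anti-apoptotic members (BCL2, BCL-XL, MCL1 and others) or activate the effectors BAX and BAK, which then open the outer mitochondrial membrane and release cytochrome c to switch on caspases. The genes of NOXA and PUMA are known targets of p53, and dense methylation of a CpG-rich promoter commonly goes with a silent gene. Transcripts and proteins of these genes were not measured in the samples used.

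DNA methylation was profiled in 4 tumors of a lung adenocarcinoma model by reduced representation bisulfite sequencing (RRBS), a method that sequences CpG-rich fragments of the genome after unmethylated cytosines have been converted, so that each read shows whether a CpG cytosine (a C followed by a G) was methylated. Of these tumors, 2 were grown from 344SQP, the parental line, and 2 from 344SQR, a line derived from 344SQP that is resistant to anti-PD1 (an antibody that blocks the T-cell checkpoint receptor PD1). The cells of both lines were injected under the skin of the leg of syngeneic female 129Sv/Ev mice aged 12 to 16 weeks. Both groups received anti-PD1 at 10 mg/kg from day 4 after injection for 4 doses, and tumor DNA was taken 24 h after the last dose, with no untreated tumor among the samples.

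Each tumor is named by its line and the replicate number of its label, and values are given in the order of replicate 1 and then replicate 2. Summed over all CpG sites, the tables held 116794455 and 138331886 CpG calls for the 344SQP tumors and 160548303 and 174689402 for the 344SQR tumors. A site was used where it had at least 20 reads in all 4 tumors, which left 1081201 sites with a mean coverage of 103.4, 120.9, 140.5 and 144.3 reads in the 4 tumors. At 20 reads, 1 read is worth 5 percentage points. A promoter comprised the bases from 1000 bp upstream to 500 bp downstream of every transcription start site (TSS) of a gene on GRCm38 (mm10), and its methylation level was the mean over its sites. The 10 promoters held 482 such sites with 20 to 378 reads each (median 119), and another 78 sites were listed in all 4 tumors but fell short of the minimum.

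Coverage of the 10 promoters was close to that of the rest of the measured genome. The mean coverage of their sites, divided by the mean over all sites of the same tumor, was 0.993 and 0.988 in the 344SQP tumors and 0.980 and 0.985 in the 344SQR tumors. Both 344SQR tumors thus lay slightly under both 344SQP tumors. For single genes the ratio ran from 0.509 to 1.50.

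Promoter methylation of the 10 genes fell into 3 levels, with Pmaip1 at a different one in each line. Bbc3, Bcl2l11, Bid, Bad, Bmf and Bax stayed under 5% in every tumor, as did 10401 of the 20135 promoters (51.7%). Hrk held an intermediate level, with tumors between 7.01% and 9.38%. Bik and Bak1 were partly methylated in every tumor, Bik between 23.7% and 37.4% and Bak1 between 31.8% and 38.7%. Pmaip1 stood above Hrk in the 344SQP tumors and among the 6 low genes in the 344SQR tumors. The neighbours in this order, Bik and Bak1, overlapped in their tumor values, and so did the low genes among themselves.

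**Figure D1:**
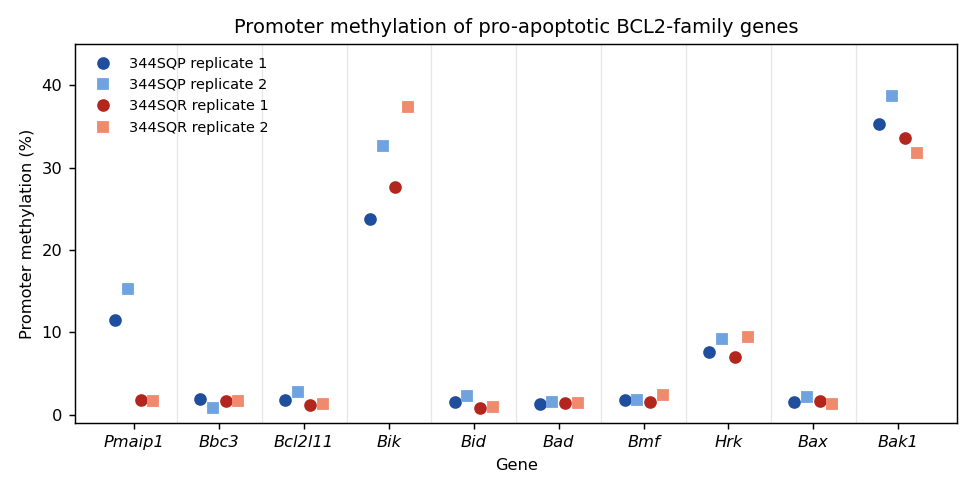
Promoter methylation level (%) of each of the 10 genes (horizontal axis), with 1 point per tumor: blue for the 344SQP tumors, red and orange for the 344SQR tumors, circles for replicate 1 and squares for replicate 2. The Pmaip1 points of the 344SQP tumors (11.5% and 15.3%) lie apart from those of the 344SQR tumors (1.74% and 1.66%), while 6 genes lie under 5% in all 4 tumors.

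NOXA, the product of Pmaip1, is a BH3-only protein that binds mainly MCL1. The promoter of Pmaip1 (ENSMUSG00000024521, chr18:66457533-66459093, + strand, 3 TSS) held 45 sites with 49 to 157 reads. Its methylation level was 11.5% and 15.3% in the 344SQP tumors and 1.74% and 1.66% in the 344SQR tumors. Both 344SQP tumors were high and both 344SQR tumors low, with line means of 13.4% ± 2.65 (SD, n = 2) and 1.70% ± 0.0619 (SD, n = 2) and a difference (344SQR minus 344SQP) of -11.7 points. These values are the ones Pmaip1 was chosen by, and the difference was not tested. Because each tumor is a mixture of injected cells and host cells, a change of methylation per cell and a change in the share of cells that carry methylated copies cannot be told apart.

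The lower level of Pmaip1 in 344SQR was seen at every measured site of its promoter. These sites lay from -93 to 536 bp around the first TSS, and the upstream part of the window before them held no site that could be used. All 45 sites had a lower mean in 344SQR, and at 42 of them both 344SQR tumors lay under both 344SQP tumors. Differences of single sites spanned -22.8 to -0.0969 points. No methylated read was seen at 21 and 27 sites of the 344SQR tumors, against 0 and 3 sites of the 344SQP tumors. The most methylated site reached 28.6% and 35.3% in the 344SQP tumors and 6.90% and 12.0% in the 344SQR tumors.

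In both lines, Pmaip1 was less methylated upstream of the TSS than in the first intron. The 12 sites upstream of the first TSS, from -93 to -4 bp, averaged 5.16% and 7.71% in 344SQP and 0.405% and 0.446% in 344SQR. The 13 exon sites outside the coding part were at 11.3% and 9.32% in 344SQP and 1.80% and 1.06% in 344SQR. Over the 9 coding sites, levels were 11.1% and 23.7% in 344SQP and 2.08% and 0.487% in 344SQR. The 11 sites of the first intron, between 362 and 536 bp after the TSS, gave 19.0% and 23.7% in 344SQP and 2.87% and 4.64% in 344SQR. By line means both lines were thus lowest upstream of the TSS and highest in the intron. Single tumors did not all keep this order, as in 344SQP replicate 2, where coding and intron sites were level. Both 344SQR tumors were lower in each of these parts. Split by strand, the 21 sites of the + strand gave 10.9% and 16.2% in 344SQP and 1.23% and 1.56% in 344SQR. The 24 sites of the - strand gave 12.1% and 14.4% in 344SQP and 2.19% and 1.74% in 344SQR.

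The site with the largest difference of line means in Pmaip1 was chr18:66458923 on the - strand, 390 bp after the TSS in the first intron. It was methylated in 14 of 65 reads (21.5%, 95% Wilson interval 13.3% to 33.0%) and 16 of 54 reads (29.6%, 19.1% to 42.8%) of the 344SQP tumors. In the 344SQR tumors it was methylated in 4 of 92 reads (4.35%, 1.70% to 10.7%) and 1 of 83 reads (1.20%, 0.213% to 6.51%). All such intervals cover counting error only, since reads without molecular tags may be copies of 1 molecule.

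Past the promoter window, Pmaip1 was methylated in both lines. The first site beyond the window, chr18:66459098, was at 57.8% and 73.5% in 344SQP and 23.0% and 32.5% in 344SQR, and the next, chr18:66459384, at 66.7% and 60% in 344SQP and 40.9% and 28.6% in 344SQR on 20 to 39 reads. The site after them, chr18:66459639, was at 79.3% and 100% in 344SQP and 58.4% and 77.4% in 344SQR. At these sites the 344SQR tumors were again the lower ones, still without overlap. Further in, this separation ended: at the 5 sites of chr18:66460912-66460987 344SQR replicate 2 was the most methylated tumor, with 82.2% to 92.6%, and 344SQR replicate 1 lay above both 344SQP tumors at only 2 of them. In the flank after the gene, both 344SQR tumors were again the lower ones at chr18:66470591, 66470598, 66472780 and 66472821. The 12 gene body sites outside any promoter averaged 71.3% and 79.7% in 344SQP and 65.0% and 81.0% in 344SQR, and the 12 sites within 10 kb on either side 54.6%, 64.0%, 48.9% and 59.8%. In both sets the lines overlapped, so the separation of the lines seen in the promoter was not present over the body and flanks of Pmaip1 as a whole; this contrast within the locus was not tested.

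**Figure D2:**
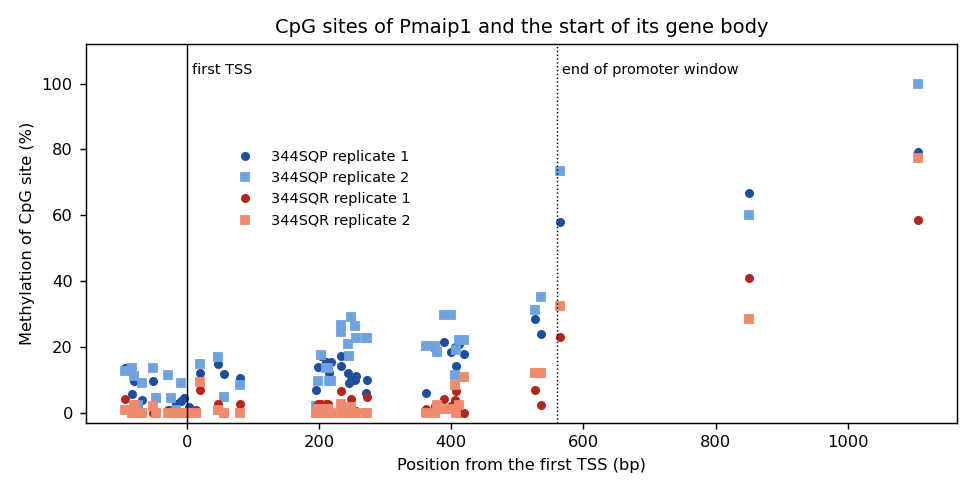
Methylation (%) of each CpG site of Pmaip1 against its distance from the first TSS (bp), with 1 point per tumor and site; the dotted line marks the end of the promoter window. Points of the 344SQP tumors (blue) are on average higher in the intron than upstream of the TSS, and the most methylated sites of the window reach 28.6% and 35.3%, while points of the 344SQR tumors (red and orange) stay at or under 12.0% up to the window's end.

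The promoters nearest to Pmaip1 in their 4 tumor values were sought among 16691 promoters with at least 5 sites, by Euclidean distance in percentage points over the 4 tumors. The closest were Gm44696 and Krba1, which share the same 35 sites on chromosome 6 (distance 1.69), at 10.5% and 14.3% in 344SQP and 2.58% and 2.17% in 344SQR. Next came Gm5089 (1.72), Pik3r5 (2.0) and Gm20556 (2.58). Pik3r5, which encodes a regulatory subunit of a phosphoinositide 3-kinase, was at 10.8%, 13.7%, 1.47% and 2.58%. Levels close to those of Pmaip1 were thus found on other chromosomes.

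Across all promoters the lines differed in many genes, which sets the scale for the 9 relatives of Pmaip1. By the combined likelihood ratio test, in which site tests are joined over a promoter by Stouffer's signed z and adjusted over all promoters (two-sided, FDR under 0.05), 7750 of 20135 promoters were called (38.5%), 5932 lower in 344SQR (29.5%) and 1818 higher (9.03%). Of the 9 relatives, 3 were called, Bid and Bak1 lower and Bik higher. The tumors of the lines did not overlap for 3 of the 9 (Bcl2l11, Bid and Bak1), against 8069 of 20135 promoters (40.1%). Both shares lie near those of all promoters, and the median difference of the 9 genes was -0.218 points against -0.233 points for all promoters. This test has no term for the spread between tumors of a line. By edgeR's quasi-likelihood test, which has one, 0 of the 9 genes and 15 of 20124 promoters (0.0745%) had an FDR under 0.05. In the same test 2 of the 9 (Bid and Bcl2l11) and 1769 promoters had an unadjusted p under 0.05. Unless stated, edgeR results are given without a block. With the replicate number as a block, edgeR gave 2444 promoters and 1 of the 9 (Bid, FDR = 0.0451). Tumors of the lines share only this number, not an animal. For single promoters an exact two-sided permutation test of 2 against 2 tumors cannot give a p below 0.333.

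Among the BH3-only genes, Bbc3 encodes PUMA, which binds all anti-apoptotic members and is induced by p53. Its promoter (chr7, 41 sites) was at 1.88% and 0.829% in the 344SQP tumors and 1.64% and 1.63% in the 344SQR tumors. The 344SQR tumors lay between the 344SQP tumors, and the difference of 0.278 points did not pass the test (FDR = 0.955, combined likelihood ratio test; exact permutation p = 1). Without 344SQP replicate 2 it turned to -0.248 points, and without 344SQP replicate 1 it was 0.805 points. Its largest single difference, 5.08 points at chr7:16309896 in an intron, came from 0 of 23 and 0 of 39 methylated reads in 344SQP (allowing up to 13.0% and 7.69%) and 2 of 81 (2.47%) and 2 of 26 (7.69%) in 344SQR.

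Bcl2l11 encodes BIM, which binds all anti-apoptotic members and can activate BAX and BAK directly. Its promoter (chr2, 46 sites) was at 1.71% and 2.69% in 344SQP and 1.15% and 1.22% in 344SQR. Both 344SQR tumors were under both 344SQP tumors, by -1.01 points between line means (exact permutation p = 0.333), short of the threshold (FDR = 0.0561, combined likelihood ratio test). The call was made with both strands of a CpG merged (FDR = 0.0241) and without 344SQR replicate 1 (FDR = 0.0142), and the difference shrank to -0.528 points without 344SQP replicate 2 (FDR = 0.409) and to -0.381 points without CCGG sites (FDR = 0.393). With the replicate number as a block, Bcl2l11 was called by a Mantel-Haenszel test (FDR = 0.0496) and not by edgeR (FDR = 0.0554). A single upstream site, chr2:128125523 at -515 bp from the first TSS, carried the largest difference, -23.7 points. It was methylated in 13 of 65 reads (20%, interval 12.1% to 31.3%) and 29 of 62 reads (46.8%, 34.9% to 59.0%) in 344SQP, and in 3 of 44 (6.82%, 2.35% to 18.2%) and 8 of 64 (12.5%, 6.47% to 22.8%) in 344SQR. The 13 sites from the TSS on were nearly unmethylated in all tumors, at 0.582%, 0.728%, 0.547% and 0.202%.

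This site lies in the motif CCGG, and the sequence around it is shown because the largest difference of Bcl2l11 rests on this 1 CpG. It is given for GRCm38, + strand, chr2:128125498-128125548, upstream of the gene and outside any exon, with the CCGG in capitals.
Bcl2l11 upstream: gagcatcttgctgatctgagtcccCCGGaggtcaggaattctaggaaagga

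Bik, which encodes a BH3-only protein of the endoplasmic reticulum, was the only relative called higher in 344SQR. Its promoter (ENSMUSG00000016758, chr15, first TSS at 83526862, 51 sites, 38 to 284 reads) was at 23.7% and 32.6% in 344SQP and 27.6% and 37.4% in 344SQR. The lines overlapped: in each line replicate 2 exceeded replicate 1, by 8.88 and 9.78 points, and this spread was larger than the 4.37 points between the line means of 28.1% ± 6.28 and 32.5% ± 6.92 (SD, n = 2). The difference was called by the combined likelihood ratio test (FDR = 5.74e-18) and not by edgeR (FDR = 0.805), and the exact permutation p was 0.667. Without 344SQP replicate 1 it became -0.0676 points (FDR = 0.766, the former test) and without 344SQR replicate 2 -0.520 points (FDR = 0.591), so that its direction rested on these tumors. Without 344SQP replicate 2 it was 8.81 points and without 344SQR replicate 1 9.26 points.

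Along the Bik promoter the sites differed between the lines in both directions. The 9 sites upstream of the first TSS averaged 9.56% and 9.79% in 344SQP and 5.78% and 6.11% in 344SQR, and here the mean was lower in both 344SQR tumors. This lower mean came mainly from the sites at -36 bp (-23.2 points) and -33 bp (-10.7 points), while 5 of the 9 sites had a slightly higher line mean in 344SQR. The 24 sites between 334 and 499 bp after the TSS averaged 35.6% and 50.4% in 344SQP and 41.4% and 58.7% in 344SQR, where replicate 2 was the higher tumor in each line. In total 33 sites were higher in 344SQR, 17 lower and 1 equal, of which 12 and 9 separated the lines without overlap.

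The largest single difference in Bik, 31.1 points, was at chr15:83526913 on the + strand, 51 bp after the TSS in a noncoding part of the first exon. It was methylated in 14 of 152 reads (9.21%, interval 5.57% to 14.9%) and 27 of 174 reads (15.5%, 10.9% to 21.6%) in 344SQP. In 344SQR it was methylated in 45 of 142 reads (31.7%, 24.6% to 39.7%) and 120 of 217 reads (55.3%, 48.6% to 61.8%). Both 344SQR tumors were thus above both 344SQP tumors, and the same held at the neighbouring sites 35, 44, 48 and 56 bp after the TSS, which were picked out after their values were seen. In contrast, the site at -36 bp was at 33.7% and 26.2% in 344SQP and 5.47% and 8.11% in 344SQR. The stretch that holds the upstream sites is shown because its mean, set mainly by these sites at -36 and -33 bp, was lower in 344SQR while that of the whole promoter was higher (GRCm38, + strand, chr15:83526762-83526861, outside any exon, each CpG in capitals).
Bik upstream: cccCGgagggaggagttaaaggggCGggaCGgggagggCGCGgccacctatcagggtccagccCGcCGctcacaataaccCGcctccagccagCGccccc

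The 2 strands of a Bik CpG gave close values at some CpGs and distant ones at others. At chr15:83527268 and 83527269 the + strand was at 47.8%, 66.9%, 59.2% and 88.0% and the - strand at 50.9%, 70.2%, 58.8% and 87.8%. Over the 10 CpGs read on both strands, the mean absolute difference between strands was 4.54, 6.76, 4.07 and 4.08 points in the 4 tumors. At chr15:83526873 and 83526874 the + strand of 344SQP replicate 2 was at 14.0% (172 reads) and the - strand at 50% (80 reads). The site chr15:83527324 stood out within this methylated stretch, with no methylated read among 127, 113, 131 and 136 reads, which allows up to 2.36%, 2.65%, 2.29% and 2.21% (3 counts of the total). Its neighbour 5 bp before it was at 48.8% to 71.9% in the same tumors. An unmethylated C and a T in the genome of the tumor give the same read at this site and cannot be told apart.

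Outside its promoter windows the body of Bik went the other way. Its 30 gene body sites averaged 66.4% and 75.0% in 344SQP and 59.6% and 58.7% in 344SQR, a difference of -11.5 points with both 344SQR tumors lower. The 16 sites within 10 kb on either side were at 93.7%, 92.4%, 90.8% and 89.4%. These values were not tested.

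**Figure D3:**
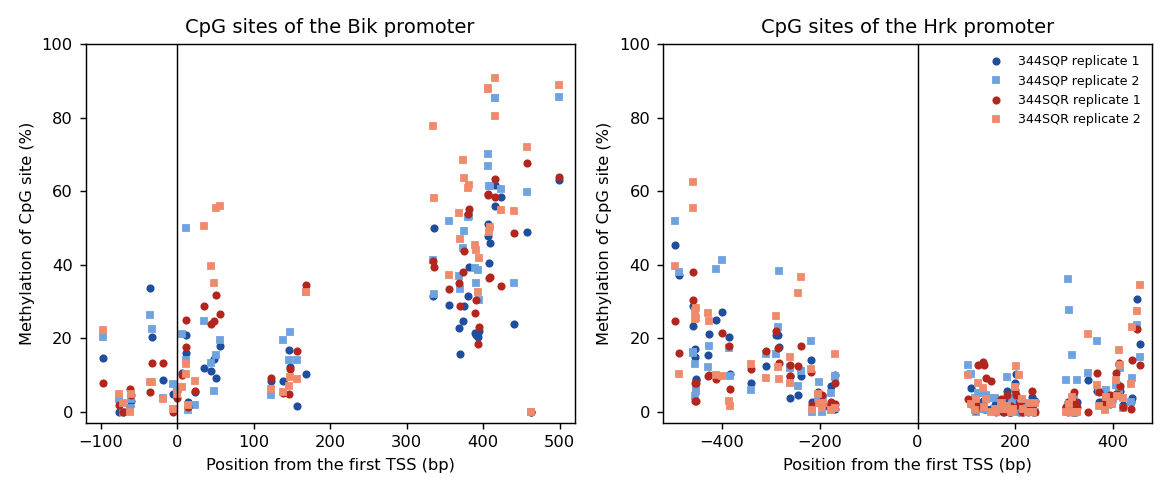
Methylation (%) of each CpG site of the Bik promoter (left) and the Hrk promoter (right) against its distance from the first TSS (bp), with 1 point per tumor and site. In Bik most points between 334 and 499 bp are methylated, with stretch means of 35.6% to 58.7%, and in Hrk the sites upstream of the TSS average 11.5% to 16.7% and those from the TSS on 3.78% to 5.80%; the Bik site 15875 bp after the first TSS is not drawn.

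Bid encodes a BH3-only protein that caspase-8 cleaves, which links death receptors to mitochondria. Its promoter (chr6, 41 sites) was at 1.53% and 2.26% in 344SQP and 0.815% and 0.915% in 344SQR. Both 344SQR tumors were lower, with line means of 1.89% ± 0.516 and 0.865% ± 0.0710 (SD, n = 2; exact permutation p = 0.333). The difference of -1.03 points was called (FDR = 0.00725, combined likelihood ratio test), on a level where most sites held no methylated read. The call was lost at a minimum of 50 reads (-0.253 points, FDR = 0.506), without the CCGG sites (-0.665 points, FDR = 0.104), without 344SQP replicate 1 (-1.39 points, FDR = 0.0773), without 344SQP replicate 2 (-0.664 points, FDR = 0.417), with z scores without a sign (FDR = 1) and by edgeR (FDR = 0.509). With the replicate number as a block, edgeR called Bid lower (FDR = 0.0451). The site with the largest difference, chr6:120916593, had 2 of 26, 4 of 31, 1 of 36 and 0 of 28 methylated reads (7.69%, 12.9%, 2.78% and 0%, the last allowing up to 10.7%). A difference of this size was not resolved at that depth.

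Bad, whose product is held inactive by phosphorylation under survival signals, and Bmf, whose product is linked to the cytoskeleton, had the smallest differences of line means. The Bad promoter (chr19, 69 sites, shared in part with Gpr137) was at 1.26% and 1.50% in 344SQP and 1.37% and 1.38% in 344SQR, and that of Bmf (chr2, 39 sites) at 1.76%, 1.71%, 1.48% and 2.32%. Lines overlapped in both genes, and neither passed the combined likelihood ratio test (FDR = 0.758 and 0.735). The sign of these small differences turned with the setting, as in Bad without 344SQP replicate 2 (0.113 points) and in Bmf without 344SQR replicate 2 (-0.256 points). The largest difference within Bad, 4.60 points at chr19:6941862, came from 3 of 77 and 0 of 97 methylated reads in 344SQP and 5 of 83 and 8 of 113 in 344SQR (3.90%, 0%, 6.02% and 7.08%, the 0% allowing up to 3.09%). A single Bmf site, chr2:118549474 in an intron, was at 3.45%, 2.50% and 3.70% in 3 tumors and at 22.6% (12 of 53 reads, interval 13.5% to 35.5%) in 344SQR replicate 2. Around Bad, 25 sites within 10 kb (chr19:6934019-6934495) lay only in promoters of other genes. Gpr137 and Kcnk4 have promoters within 10 kb of Bad, and the sites were not assigned to either. The sites were at 32.4% and 53.6% in 344SQP and 54.2% and 77.6% in 344SQR. Both 344SQR tumors lay above both 344SQP tumors there, which was not tested.

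Hrk encodes Harakiri, a BH3-only protein best known from neurons. Its promoter (chr5, TSS at 118169748, 87 sites) was at 7.61% and 9.22% in 344SQP and 7.01% and 9.38% in 344SQR. The lines overlapped almost fully, and the difference of -0.218 points was far from the threshold (FDR = 0.888, combined likelihood ratio test). Single sites nonetheless moved by up to 30.4 points in opposite directions, with 44 sites lower and 43 higher in 344SQR. With z scores that carry no sign, so that opposite sites do not cancel, Hrk was called (FDR = 7.63e-58), and without 344SQR replicate 2 it was called lower (-1.40 points, FDR = 0.00123). Its direction turned without 344SQR replicate 1 (0.970 points), without 344SQP replicate 2 (0.587 points) and with the reads of the promoter pooled (0.233 points).

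Methylation of Hrk was on average higher upstream of the TSS than after it. The 33 upstream sites averaged 13.9% and 14.8% in 344SQP and 11.5% and 16.7% in 344SQR, against 3.78%, 5.80%, 4.27% and 4.91% over the 54 sites from the TSS on. Single sites after the TSS were methylated too, as at 449 bp in the intron (chr5:118170197), with 30.6%, 23.6%, 22.4% and 27.3%. At -458 bp from the TSS (chr5:118169290, - strand), 30 of 128 reads (23.4%, interval 16.9% to 31.5%) and 22 of 137 reads (16.1%, 10.9% to 23.1%) were methylated in 344SQP. The 344SQR tumors were higher there, with 54 of 142 reads (38.0%, 30.5% to 46.2%) and 144 of 231 reads (62.3%, 55.9% to 68.3%). Only 30 bp further out, chr5:118169260 was at 37.2% and 38.1% in 344SQP and 16.0% and 10.2% in 344SQR, a difference of -24.6 points. The lines thus changed places between neighbouring CpGs of 1 short stretch, which is shown for that reason (GRCm38, + strand, chr5:118169250-118169442, upstream of the gene and outside any exon, each CpG in capitals).
Hrk upstream: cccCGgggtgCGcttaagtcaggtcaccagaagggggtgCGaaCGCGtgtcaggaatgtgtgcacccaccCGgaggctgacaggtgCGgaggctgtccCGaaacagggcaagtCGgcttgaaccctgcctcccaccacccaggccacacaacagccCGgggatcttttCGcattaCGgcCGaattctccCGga

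Of the effectors, Bax encodes the protein that moves to mitochondria and opens their outer membrane. Its promoter (chr7, 42 sites) was at 1.54% and 2.15% in 344SQP and 1.63% and 1.30% in 344SQR. Lines overlapped (exact permutation p = 0.667), and the difference of -0.378 points did not pass the test (FDR = 0.0923, combined likelihood ratio test). The call was made with both strands of a CpG merged (FDR = 0.0154) and without 344SQR replicate 1 (FDR = 0.0121). With a tumor left out the difference ran from -0.681 points (without 344SQP replicate 1) to -0.0737 points (without 344SQP replicate 2), and without CCGG sites it was -0.107 points (FDR = 0.377). The site with the largest difference in Bax, -5.04 points, was chr7:45466584, with 5 of 81 and 6 of 74 methylated reads in 344SQP and 4 of 95 and 0 of 81 in 344SQR (6.17%, 8.11%, 4.21% and 0%, the last allowing up to 3.70%).

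Bak1, which encodes BAK, the effector that resides in the mitochondrial membrane, had the most methylated promoter of the 10 genes in all tumors but 344SQR replicate 2, where Bik was higher. The promoter (chr17, first TSS at 27029009, - strand, 21 sites with 22 to 205 reads, shared in part with Ggnbp1) was at 35.3% and 38.7% in 344SQP and 33.6% and 31.8% in 344SQR. Both 344SQR tumors were lower, with line means of 37.0% ± 2.40 and 32.7% ± 1.27 (SD, n = 2; exact permutation p = 0.333), and the difference of -4.27 points was called by the combined likelihood ratio test (FDR = 0.0267).

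This level joined an almost fully methylated part and an unmethylated part. The 8 upstream sites, from -655 to -460 bp, were at 89.3% and 96.6% in 344SQP and 83.6% and 80.0% in 344SQR, and the 13 sites after the TSS at 2.03%, 3.01%, 2.87% and 2.17%. Only the upstream part separated the lines. Within it, the 2 sites at -655 and -637 bp averaged 74.3% and 89.1% in 344SQP and 53.7% and 50.0% in 344SQR (-29.9 points). The other 6 upstream sites averaged 94.3% and 99.1% in 344SQP and 93.5% and 90.0% in 344SQR (-5.00 points). The largest difference, -33.6 points, came from chr17:27029646, methylated in 21 of 30 reads (70%, interval 52.1% to 83.3%) and 22 of 23 reads (95.7%, 79.0% to 99.2%) in 344SQP and in 18 of 27 (66.7%, 47.8% to 81.4%) and 7 of 22 (31.8%, 16.4% to 52.7%) in 344SQR. The intervals of 344SQP replicate 1 and 344SQR replicate 1 overlapped there. A minimum of 50 reads leaves out all 8 upstream sites, so that the difference then obtained, 0.550 points (FDR = 0.764), covers only the little methylated sites after the TSS. With the reads of the whole promoter pooled the difference turned to 2.29 points, and by edgeR, which sums the same reads, to 0.20 on the log2 scale (FDR = 0.925). The call was also lost without 344SQP replicate 2 (-2.58 points, FDR = 0.506), without 344SQR replicate 2 (-3.37 points, FDR = 0.442) and with z scores without a sign (FDR = 1).

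The upstream part of Bak1 is shown because its methylation sets the level of the promoter (GRCm38, + strand, chr17:27029466-27029667, upstream of the gene, which lies on the - strand, and outside any exon, each CpG in capitals).
Bak1 upstream: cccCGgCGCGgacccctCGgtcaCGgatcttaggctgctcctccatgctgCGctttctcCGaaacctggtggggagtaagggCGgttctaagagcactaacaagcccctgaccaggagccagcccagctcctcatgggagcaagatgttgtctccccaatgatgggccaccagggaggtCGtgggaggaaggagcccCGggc

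In the 6 genes under 5%, the little methylation there was sat mainly in CpGs within CCGG, a contrast examined after the data were seen. Their 59 CCGG sites averaged 5.62% and 6.40% in 344SQP and 4.70% and 5.01% in 344SQR, and their 219 other sites 0.490%, 0.607%, 0.442% and 0.482%. In Bax the 8 CCGG sites were at 6.47%, 9.41%, 7.01% and 5.82% and the 34 other sites at 0.377%, 0.436%, 0.364% and 0.235%. The same was seen over all promoters under 5%, where 73783 CCGG sites averaged 6.33%, 6.34%, 5.75% and 6.01% and 341000 other sites 0.546%, 0.574%, 0.449% and 0.467%, so it was not particular to the apoptosis genes. CCGG is the site of MspI, the enzyme commonly used in RRBS; the enzyme used here is not given, and its part in these values was not tested. The Pmaip1 values, by which it was chosen, split into 15.2%, 18.0%, 4.69% and 3.17% over 7 CCGG sites and 10.8%, 14.8%, 1.20% and 1.38% over 38 others.

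Bax shows the contrast on a short stretch of its first intron (GRCm38, + strand, chr7:45466566-45466738, intron of Bax, which lies on the - strand, with no UTR base), where each CCGG is in capitals among the other CpGs.
Bax first intron: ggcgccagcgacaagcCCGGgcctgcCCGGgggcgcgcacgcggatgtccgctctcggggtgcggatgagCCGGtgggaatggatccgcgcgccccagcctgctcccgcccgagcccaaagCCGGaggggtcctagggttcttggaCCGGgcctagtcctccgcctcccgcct

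**Figure D4:**
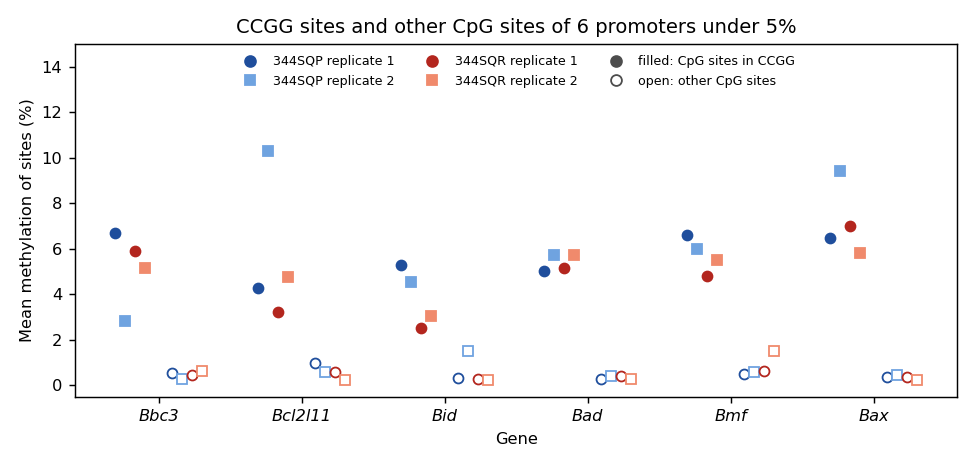
Mean methylation (%) of CpG sites in CCGG (filled) and of other CpG sites (open) for the 6 promoters under 5%, with 1 point per tumor and gene. For Bax the filled points lie between 5.82% and 9.41% and the open points between 0.235% and 0.436%.

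The anti-apoptotic relatives, which the BH3-only proteins bind, were measured for 5 of 8 genes. By the combined likelihood ratio test, 2 of the 5 were lower in 344SQR and 0 higher (29.5% and 9.03% of all promoters), with a median difference of -0.950 points against -0.233 for all promoters, and edgeR called 0. Bcl2l10, the most methylated, was at 95.5% and 94.3% in 344SQP and 91.0% and 84.4% in 344SQR (-7.17 points, FDR = 4.30e-20, same test), and Bcl2l2, which encodes BCL-W, at 5.66%, 3.28%, 2.19% and 1.93% (-2.41 points, FDR = 4.03e-11). Both 344SQR tumors were the lower ones in these genes. Mcl1, whose product NOXA binds, was nearly unmethylated at 0.828%, 0.968%, 0.804% and 0.859%. Bcl2l2 and Mcl1 were named after their values were seen. Of the other BCL2-family genes 5 of 10 were measured, all under 5% in every tumor, with 0 called by either test and a median difference of -0.0297 points. The most methylated of them, Bnip3, was at 4.19%, 3.88%, 2.47% and 2.66%.

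Downstream of the mitochondria, all 19 genes of the caspase and mitochondrial list were measured, 4 lower in 344SQR and 0 higher by the combined likelihood ratio test (29.5% and 9.03% of all promoters), 0 by edgeR, with a median difference of -0.212 points. Xiap, an inhibitor of caspases and first of the list by the mean of the 4 tumors, was at 32.3% and 18.8% in 344SQP and 26.5% and 8.34% in 344SQR, with overlapping lines (-8.15 points, FDR = 1.02e-10). Aifm1 followed the same order of tumors at 28.2%, 20.6%, 24.7% and 10.1%. Both genes lie on the X chromosome, whose share of all CpG calls had the same order of tumors (1.59%, 1.28%, 1.51% and 1.18%), and the part of this in their values was not tested. Casp9, which starts the caspase cascade after cytochrome c release, was at 2.67%, 2.30%, 0.781% and 1.76%. Without 344SQP replicate 1 the list held 1 call, and without 344SQR replicate 2 it held 2. Aifm1 and Casp9 were named after their values were seen.

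Among death receptor genes, 8 of 10 were measured and 1, Fasl, was called (higher, combined likelihood ratio test, FDR = 0.0130), on a single site at 84.9% and 82.9% in 344SQP and 98.9% and 88.4% in 344SQR. The call of Fasl was lost without 344SQP replicate 2 and without 344SQR replicate 1, and removal of CCGG sites leaves Fasl with no site to test. Across all promoters 9.03% were called higher and 29.5% lower. The list had 0 lower, a median difference of 0.0309 points and 0 calls by edgeR. Of the transcriptional regulators of BH3-only genes 13 of 14 were measured, 1 lower and 1 higher (29.5% and 9.03% of all promoters), with a median of -0.171 points and 0 by edgeR. Trp73, which encodes a relative of p53, was lower by the test at 14.9%, 21.2%, 16.4% and 17.4% (FDR = 7.79e-12), and Atf3, first of the list by the mean of the 4 tumors, was higher at 17.9%, 17.8%, 18.3% and 17.9% (FDR = 2.73e-06). In both the lines overlapped. Trp53 itself had 2 sites, at 0%, 3.57%, 1.02% and 3.75%, and was not called. Without 344SQP replicate 2 the list held 1 call and without 344SQR replicate 1 it held 6. Trp73 and Trp53 were picked out after their values were seen.

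Among 5 lists of marker genes for cell types that a tumor can hold, the mean of the leukocyte list separated the lines and the means of the other lists overlapped. In the leukocyte list only 1 of the 4 measured genes, Cd2, separated the lines by itself, against 40.1% of all promoters. The leukocyte list, measured for 4 of 15 genes without Ptprc, averaged 65.7% and 70% in 344SQP and 57.2% and 47.0% in 344SQR. In that list 3 genes were lower by the combined likelihood ratio test and 0 higher (29.5% and 9.03% of all promoters), led by the single Cd2 site at 85.1%, 81.4%, 69.2% and 38.8%, and Cd3e had the highest mean of the 4 tumors, with 81.1%, 75.8%, 81.5% and 46.6%. The fibroblast list (4 of 6 genes) averaged 38.1%, 44.8%, 34.8% and 42.4% with 1 gene lower and 1 higher, and its most methylated gene was Col1a1 at 90.0%, 100%, 81.4% and 96.1%. The endothelial list (3 of 5 genes) averaged 43.4%, 58.4%, 30.6% and 59.2% with 1 lower and 1 higher, and Tie1 had the highest mean of the 4 tumors, with 58.5%, 89.1%, 46.2% and 75.9%.

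The epithelial list (6 of 7 genes) averaged 14.6% and 12.6% in 344SQP and 13.3% and 9.59% in 344SQR, with 3 genes lower and 0 higher (29.5% and 9.03% of all promoters), Cldn4 having the highest mean of the 4 tumors at 39.8%, 30.7%, 35.5% and 16.7%. Epcam, which the rule for naming genes did not pick, was at 4.51%, 5.46%, 5.77% and 4.56%. Of the lung lineage list only Nkx2-1 (1 of 4 genes) was measured, at 9.87%, 14.5%, 12.7% and 18.7%, called higher with overlapping lines (FDR = 1.0e-06, combined likelihood ratio test). edgeR called 0 genes of any marker list. Since the host mice were female, reads that stem from the Y chromosome can come only from injected cells, and the share of CpG calls assigned to it was 0.0406% and 0.0254% in 344SQP and 0.0555% and 0.0178% in 344SQR, without separating the lines. The part of cell composition in the difference of Pmaip1 was not tested.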

How the data were processed

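RRBS was performed on tumor DNA of 2 344SQP and 2 344SQR tumors, grouped by their labels; tumors of a line come from different mice. Per the submitters' notes and the study's methods, the authors trimmed reads with Trim Galore 0.4.1 and cutadapt 1.9.1, mapped unique reads to mm10 with Bismark and Bowtie 1.1.2, and called methylation. The deposited tables give, for every CpG cytosine on each strand, a read count (coverage) and the methylated and unmethylated calls in percent, with no normalization and no coverage minimum. Methylated reads were recomputed from coverage and percent, which returned every percent within 0.05 points.

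Coverage of 20 reads or more was required in every tumor, and all sites kept were on a CpG of GRCm38 (a C57BL/6J reference, while the mice are 129Sv/Ev). TSS came from the basic set of GENCODE vM21, and a promoter joined the windows (1000 bp before to 500 bp after) of all TSS of a gene. Each site was tested by a likelihood ratio test in a logistic model of line alone (p not below 2.2e-16). Site results were combined by Stouffer's signed z, two-sided, with Benjamini-Hochberg adjustment over all promoters; the study's methods do not state whether the z scores were signed. Exact two-sided permutation tests compared single promoters. edgeR 4.0.16 tested methylated and unmethylated reads summed over a promoter with tumor effects.

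Alternatives were coverage minimums of 10 and 50, merged strands, pooled reads, the 5′ TSS only, unsigned z scores, each tumor left out, a replicate block (Mantel-Haenszel, edgeR), and removal of CCGG sites, the last chosen after seeing the data. Named were all members, in every other list the non-overlapping genes with FDR under 0.05 and differences from 10 points up (at most 8) and the gene with the highest mean of the 4 tumors, the 5 promoters nearest to Pmaip1, and in each member the site with the largest difference. Lists were anti-apoptotic and other BCL2-family genes, mitochondrial and caspase steps, death receptors, regulators of BH3-only genes, and epithelial, lung lineage, leukocyte, fibroblast and endothelial markers. The values of 1 called gene of the mitochondrial and caspase list are not reported here. The members and lists were chosen with earlier results of these data known. The tests were tested on simulated data, and no outcome of that is reported here. Software comprised R 4.3.3 and Python 3.11.15 (pandas 2.3.3, numpy 2.4.6, matplotlib 3.10.9, scipy 1.17.1). Promoter and intron sequences were read from the RefSeq GRCm38 genome.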

Additional observations from a re-analysis of the deposited data

How the results depend on the processing

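Of 126 alternatives for the 9 relatives of Pmaip1, 21 changed sign, which unsigned z scores and the Mantel-Haenszel block cannot do. Of the 117 with a test, 94 kept their side of the threshold, 7 gained a call and 16 lost one. With a tumor left out, differences ranged from -0.520 to 9.26 points for Bik (-0.0676 without 344SQP replicate 1), -1.40 to 0.970 for Hrk, -0.248 to 0.805 for Bbc3, -0.130 to 0.113 for Bad and -0.256 to 0.590 for Bmf. With reads pooled, they turned to 2.29 for Bak1, 0.233 for Hrk and 0.0295 for Bad. A minimum of 50 reads gave 0.550 for Bak1, whose methylated sites it leaves out, -0.291 for Bmf and 0.0406 for Bad, which was 0.0593 at 10 reads and 0.110 with merged strands. edgeR gave log2 values of 0.20 (Bak1), 0.031 (Bad) and 0.022 (Hrk). The difference of Pmaip1 stayed between -13.6 and -9.81 points when a tumor was left out and was -11.5 without CCGG sites.

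Main calls were 7750 promoters, 3 relatives of Pmaip1, 2 anti-apoptotic genes, 4 mitochondrial and caspase genes, 1 death receptor gene and 2 regulators. Leaving out a tumor gave 6566 to 8488 promoters, 1 to 5 relatives, 1 to 3 mitochondrial and caspase genes, 0 to 1 death receptor genes and 1 to 6 regulators. A minimum of 50 reads gave 1 relative, merged strands 5, unsigned z scores 2 mitochondrial and caspase genes, and removal of CCGG sites 0 death receptor genes (the 1 site of Fasl is left out) and 4 regulators. edgeR gave 15 promoters and 0 genes of each list. The cause was not tested.

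Tumors of the lines share only a replicate number, not an animal. Deviations of the same number from their line means had r = 0.663 over 20135 promoters and 0.811 over the 16692 with at least 5 sites. With this number as a block, edgeR gave 2444 promoters, 1 relative (Bid, FDR = 0.0451), 2 anti-apoptotic genes, 1 mitochondrial and caspase gene, 0 death receptor genes and 0 regulators, and log2 values of 0.19 (Bak1), 0.031 (Bad) and 0.022 (Hrk). The Mantel-Haenszel block gave 7549 promoters and 4 relatives, Bcl2l11 (FDR = 0.0496) beside the 3 of the main test.

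With 2 tumors a line and sites from 20 reads, differences of a few points at single sites are not resolved. In the Bid promoter, which was below 1% in 344SQR, 25 and 27 of the 41 sites held no methylated read in the 344SQR tumors.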

Other observations

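Within 10 kb of Bid, 1 qualified site lies in the promoter of another gene only. It was at 46.7% and 44.2% in 344SQP and 13.9% and 18.5% in 344SQR, while the Bid promoter was under 5% in all 4 tumors. The gene body of Hrk, over 91 sites outside any promoter, was at 7.52% and 8.86% in 344SQP and 10.1% and 12.2% in 344SQR, both 344SQR tumors being higher, where its promoter overlapped between the lines. The 14 sites in the flanks of Bcl2l11 ranged widely within each line, at 35.1% and 62.3% in 344SQP and 45.8% and 77.8% in 344SQR.

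Gene body sites of Bax, Bmf, Bak1, Bbc3 and Bad were lower in both 344SQR tumors, as were those of Bik. In Pmaip1, Bcl2l11 and Bid the lines overlapped there, and in Hrk both 344SQR tumors were higher. The 143 sites of Bbc3 were at 9.67%, 9.09%, 8.96% and 8.58%, and the 36 of Bad at 9.35%, 9.31%, 9.04% and 8.91%. The 13 sites of Bak1 were at 72.3%, 71.4%, 67.7% and 68.2%, the 16 of Bmf at 48.2%, 50.4%, 44.9% and 43.6%, and the 4 of Bax at 98.0%, 97.0%, 95.6% and 95.3%. Over all 1081201 qualified sites the mean was 31.0% and 32.7% in 344SQP and 29.4% and 29.1% in 344SQR. None of these values was tested.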
